A study of Mus musculus with 45 samples.

Results

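Ribosome biogenesis factors were followed here as 35 mouse genes, chosen by symbol from the 28454 genes listed in the deposited count table, and all 35 were found, each on a row of its own. They were measured by messenger RNA sequencing in 45 libraries of mammary tumour cell lines and are set beside the level of Myc in each line and condition. The tumours arose in MMTV-MYC mice, in which the mouse mammary tumour virus promoter drives MYC in the mammary epithelium, so every line carries this transgene and no line without it was compared. MYAZ16.1e, MYAZ12.3i and MYAZ6.6g (the MYAZ lines) come from tumours of such mice, and MYAZ12.3i-NDI1 is taken from its name as a derivative of MYAZ12.3i (NDI1 is the name of a yeast NADH dehydrogenase, and nothing more is given about this line). Myc310 is 1 line, from the tumour of a mouse with multiple tumours. LM1, LM2 and LM3 (the LM lines) were grown out of lungs after Myc310 cells had been injected into the mammary fat pad of FVB/NJ hosts. LM1-LM was obtained in the same way after injection of LM1, and LM2-LM and LM3-LM are its counterparts (the LM-LM lines). The LM and LM-LM lines therefore all descend from Myc310 and are not independent tumours. Of the 45 libraries, 33 are of cells given control medium, 3 cultures for each of the 11 lines. The other 12 are of 4 lines (MYAZ16.1e and, from the lineage, Myc310, LM1 and LM1-LM), 3 cultures each, that were grown for 24 h and then kept for 6 h in medium lacking cysteine and cystine (deprived cells). The series describes the 3 cultures of a line as technical replicates, so p-values between cultures measure only the spread between cultures of a line. In the deprivation model this spread is pooled over the groups of its 4 lines.

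Ribosomes are made mainly in the nucleolus. RNA polymerase I transcribes a long precursor ribosomal RNA, which is modified by small nucleolar ribonucleoproteins (snoRNPs) of the box C/D and box H/ACA kinds, cut, folded and bound by ribosomal proteins to give the small and the large subunit. Nucleolar chaperones, helicases, GTPases and methyltransferases act on the way and leave before the subunits are finished. Genes of this pathway are well known targets of MYC, which binds the E-box CACGTG, and growing tumour cells make ribosomes at a high rate. The 35 genes comprise 2 subunits of RNA polymerase I, 4 nucleolar scaffold and chaperone proteins, 4 box C/D and 3 box H/ACA snoRNP proteins, 9 factors of the small subunit and 13 of the large subunit.

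Total counts on genes ranged from 19517859 to 29019988 per library, with a median of 22899900. The 35 genes were counted at 570 to 90391 reads per library, all passed the filter on low counts in every model, and together they took 1.17% to 1.44% of all counts. Annotated exons of Nop56, Nop58, Ncl, Gnl3 and Ppan overlap snoRNA genes of the same strand, and exons of 17 of the 35 genes overlap a gene of the opposite strand. How reads in these stretches were assigned was not tested. Levels are given as CPM, the read count scaled to a common library size after TMM scaling over the 45 libraries, which makes each value relative to the rest of the messenger RNA of that library. Log2 fold changes and percent changes come from fits that were scaled separately, over their own libraries after the filter. They can therefore differ slightly from ratios of the printed CPM. Overlap between cultures was judged on CPM. In bulk cultures fewer cells of a kind and less RNA per cell cannot be told apart. The 6 genes chosen to check the deprivation (Atf4, Ddit3, Asns, Trib3, Chac1 and Sesn2, which respond to shortage of amino acids) rose in all 4 deprived lines, by 1.65 to 6.41 on the log2 scale. Of 10 epithelial markers, Epcam, Cdh1, Cldn3, Cldn4, Cldn7 and Esrp1 were under 1 CPM in every library, whereas Krt8 and Krt18 were at group means of 219.5 to 1704 and 99.0 to 546 CPM. Most leukocyte (Ptprc among them), endothelial (Pecam1) and alveolar (Sftpc) markers were under 1 CPM in every library. Others were not, with group means of 3.50 to 16.7 CPM for Cd68 and 1.86 to 189.6 CPM for Eng. Kdr, Hopx, Ager and Itgam reached group means of 6.27, 5.05, 1.61 and 1.08 CPM. Of the fibroblast markers, Col3a1, Pdgfra and Pdgfrb reached 199, 55.4 and 37.6 CPM, and Col1a1 and Col1a2 reached 3.16 and 1.13 CPM. The summed levels of the fibroblast, leukocyte, endothelial and alveolar lists ranged from 1.73 to 217.5, 3.31 to 19.9, 2.68 to 200.0 and 0.0504 to 6.63 CPM, with the top of the fibroblast list from Col3a1 in LM3-LM and that of the endothelial list from Eng in LM1-LM. Their part in the results was not tested.

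In control medium the 35 genes spanned a wide range of levels, and most differed by less than 1.5-fold between the highest and the lowest line. Compared per kilobase of merged exon, the highest level was that of Npm1 (nucleophosmin, a nucleolar chaperone), at 1019 CPM per kb over the 11 control means. Next came Ncl (nucleolin, an abundant nucleolar RNA-binding protein) at 275 CPM per kb and Mybbp1a, a nucleolar protein that binds MYB, at 166 CPM per kb. The lowest were Nle1 at 13.2 CPM per kb and Wdr12 at 9.33 CPM per kb, both factors of the large subunit. Together, Ncl and Npm1 made up 41.7% of the reads counted on the 35 genes. The merged exons include rare isoforms, so that a per-kilobase level understates genes with long minor exons. The ratio of the highest to the lowest control line mean had a median of 1.45 over the 35 genes and was above 1.5 for 11 of them. It was smallest for Gar1, at 1.15, and largest for Noc2l, at 2.12, followed by Nle1 (2.05), Nhp2 (1.96) and Nop16 (1.84). Within a group the 3 cultures lay close together, with a median coefficient of variation of 2.09% over the genes. The heat map of mean levels shows these differences for each gene and group.

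**Figure D1:**
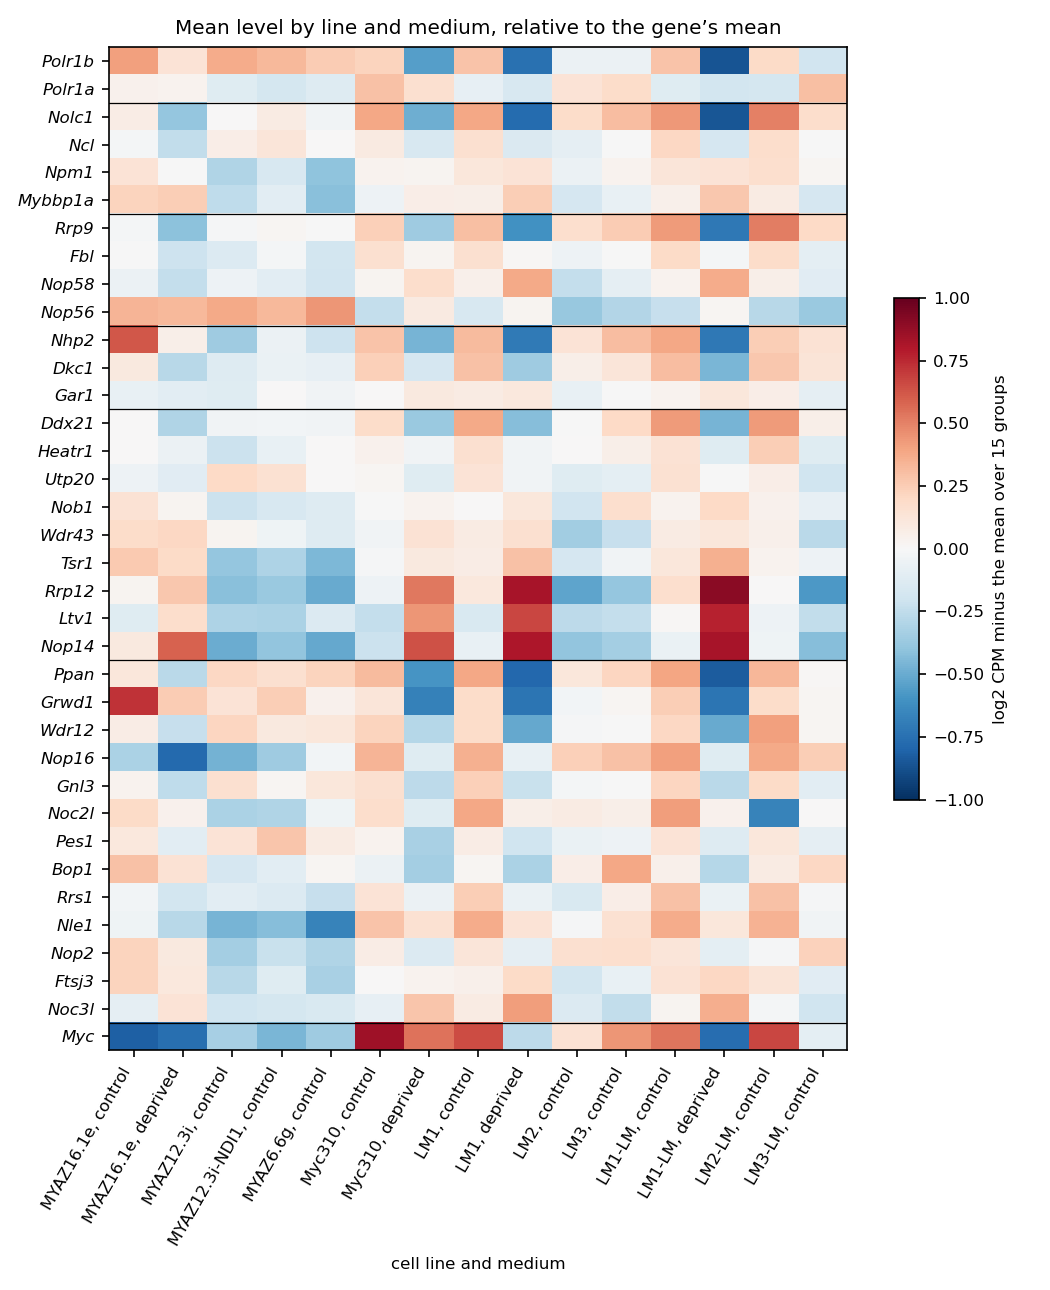
Mean level of each of the 35 genes and of Myc (rows, grouped by role from RNA polymerase I at the top to the large subunit) in the 15 groups of line and medium (columns). Colour gives the log2 CPM minus the gene's mean over the 15 groups, from blue (lower) to red (higher), each cell a mean of 3 cultures. The 3 deprived columns of the Myc310 lineage are blue for Polr1b, Nolc1, Rrp9, Nhp2 and Ppan and red for Rrp12, Ltv1 and Nop14, and Noc2l is blue in LM2-LM.

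Deprivation of cysteine and cystine for 6 h lowered most of the 35 genes in each of the 4 lines, and raised a smaller group. Of the genes that rose, 3 of 4, 5 of 9, 6 of 12 and 6 of 13 in the 4 lines (MYAZ16.1e first, LM1-LM last) were small-subunit factors. In MYAZ16.1e, 26 of the 35 genes fell and 4 rose, while 27.1% of all 13400 genes tested fell and 26.6% rose. In Myc310, 22 fell and 9 rose, against 33.9% and 32.8% of all genes. In LM1, 21 fell and 12 rose, against 35.3% and 35.8%. In LM1-LM, 21 fell and 13 rose, against 35.9% and 36.5%. The share that fell was therefore above that of all genes in each line, and the share that rose was below it in MYAZ16.1e and Myc310 and close to it in LM1 and LM1-LM. The median log2 fold change of the 35 genes was -0.16 in MYAZ16.1e and in Myc310. It was -0.18 in LM1 and -0.22 in LM1-LM, and the medians of all genes were between -0.01 and 0.00. Calls are those of edgeR's quasi-likelihood test, with p-values adjusted over all genes by the Benjamini-Hochberg method and a threshold of 0.05. Most falls were small. A fall of more than 1.5-fold was called for 0, 6, 9 and 9 of the 35 genes in the 4 lines, in the order used above, where 3.38%, 12.9%, 17.4% and 18.5% of all genes met the same rule. A rise of more than 1.5-fold was called for 0, 2, 3 and 3 genes, against 8.02%, 13.6%, 17.4% and 18.5% of all genes. Deprived and control cultures did not overlap for 28, 32, 33 and 31 of the 35 genes, against 58.9%, 69.4%, 73.4% and 74% of all genes.

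Taking the 4 lines together, 21 of the 35 genes fell in every line and 4 rose in every line, compared with 19% and 19.3% of all genes. The 4 that rose everywhere were Nop14, Ltv1, Rrp12 and Noc3l. Another 5 genes (Npm1, Nop58, Nob1, Tsr1 and Ftsj3) fell in MYAZ16.1e and rose in at least 1 of the other lines, a pattern found for 3.42% of all genes, while calls of both directions in any of the lines occurred for 6.15%. The last 5 (Polr1a, Gar1, Wdr43, Mybbp1a and Nop56) passed the test in some lines and in a single direction. None of the 35 genes was uncalled in all lines, against 14.3% of all genes. The 35 genes had at least 570 reads in any library. By comparison, 13400 genes were tested and 10704 had at least 10 counts in every library of this model. The part of the count level in these shares, and in those of cultures without overlap, was not tested. The plot of log2 fold changes by role shows all of these values.

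Marker levels also moved with the medium. The summed epithelial markers, which are mostly Krt8 and Krt18, were higher in the deprived cultures of every line without overlap. They went from 1147 to 1175 CPM in control to 1353 to 1399 CPM in deprived MYAZ16.1e, and from 1383 to 1400 CPM to 1604 to 1640 CPM in Myc310. In LM1 they went from 1105 to 1134 CPM to 1383 to 1419 CPM, and in LM1-LM from 1016 to 1062 CPM to 1317 to 1347 CPM. The fibroblast sum was lower after deprivation in LM1 (15.1 to 17.7 against 10.5 to 11.4 CPM) and LM1-LM (57.6 to 63.6 against 26.9 to 29.2 CPM), and higher in MYAZ16.1e and Myc310, at up to 11.9 CPM. The endothelial sum was lower in deprived LM1 (173.5 to 177 against 137 to 144 CPM) and LM1-LM (175 to 200.0 against 151 to 158 CPM), higher in deprived MYAZ16.1e (at most 8.63 CPM in control and at least 8.75 CPM when deprived) and overlapped between media in Myc310. The leukocyte sum was higher after deprivation in MYAZ16.1e, Myc310 and LM1, at up to 13.9 CPM, and overlapped between media in LM1-LM. The alveolar sum was lower in deprived MYAZ16.1e (1.80 to 2.51 against 1.00 to 1.21 CPM), LM1 (0.632 to 1.03 against 0.276 to 0.465 CPM) and LM1-LM (0.387 to 0.653 against 0.0504 to 0.306 CPM) and overlapped in Myc310. The part of these shifts in the changes of the 35 genes was not tested.

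**Figure D2:**
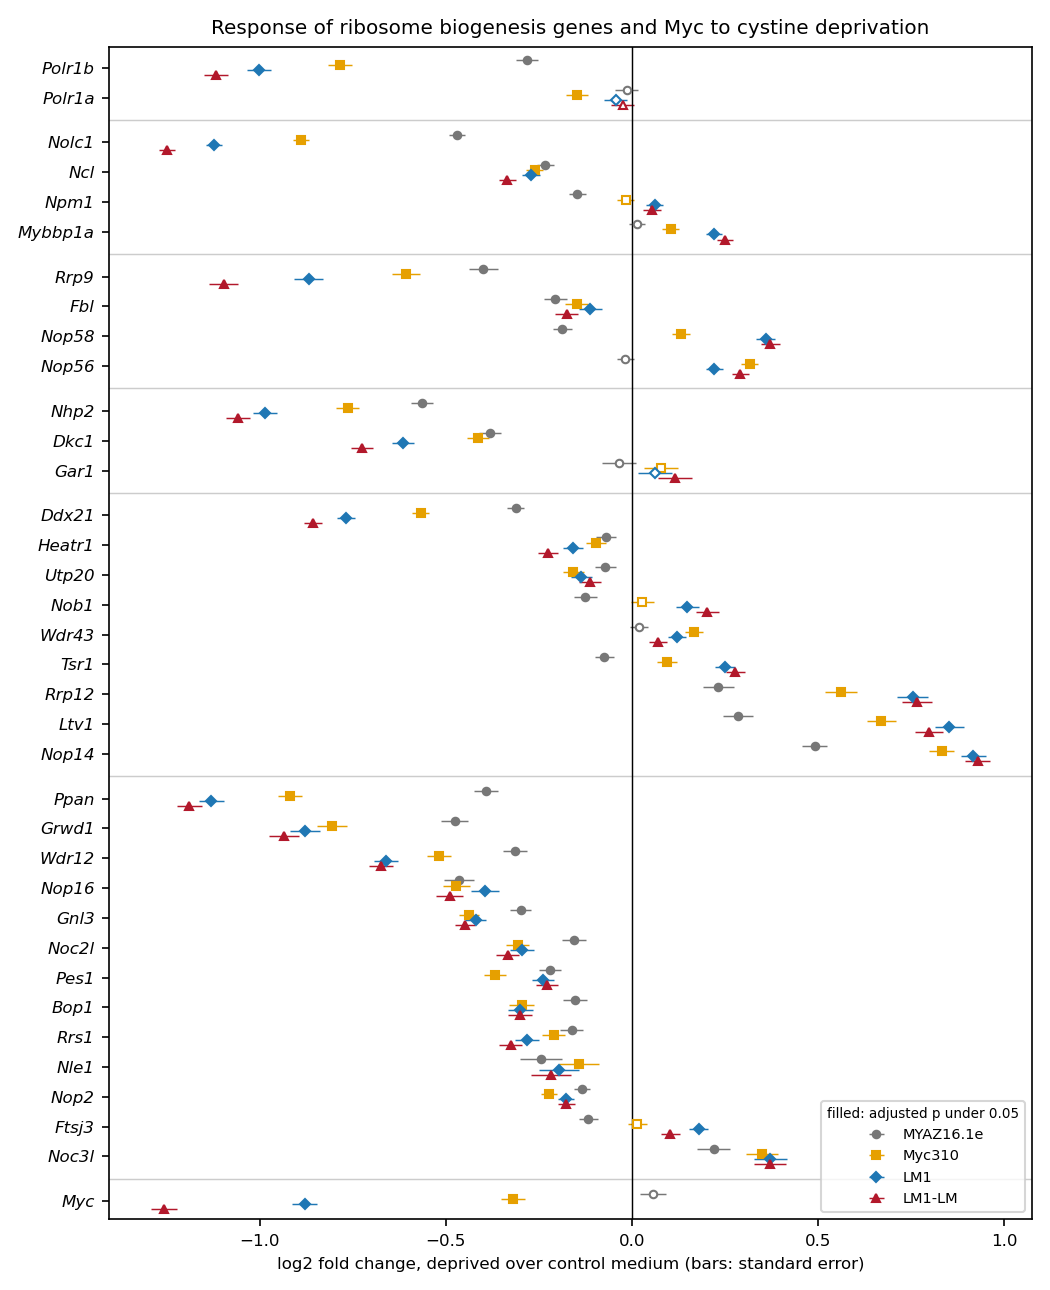
Log2 fold change of each of the 35 genes and of Myc (rows, grouped by role) between deprived and control medium, with its standard error, in MYAZ16.1e (circles), Myc310 (squares), LM1 (diamonds) and LM1-LM (triangles). Filled symbols passed an adjusted p-value of 0.05. Nolc1, Polr1b, Ppan, Nhp2 and Rrp9 lie between -1.25 and -1.06 in LM1-LM, Nop14, Ltv1 and Rrp12 lie to the right of 0 in all lines, and Nop58 lies on opposite sides in MYAZ16.1e and the other lines.

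The 2 subunits of RNA polymerase I moved unequally. Polr1b (ENSMUSG00000027395, chromosome 2, 129100995 to 129126594, plus strand, GRCm38), which encodes the second largest subunit, was at 191, 196 and 199 CPM in the control and 160, 168 and 156 CPM in the deprived cultures of MYAZ16.1e. In Myc310 it was at 178, 168 and 168 CPM and fell to 97.4, 101.5 and 102 CPM. In LM1 it was at 179, 178 and 181 CPM and fell to 89.8, 86.9 and 85.3 CPM, and in LM1-LM at 174, 179 and 185 CPM and fell to 79.7, 83.5 and 78.6 CPM. Control and deprived cultures were apart in every line, and the lines that started at similar levels ended at different ones. Its log2 fold change was -0.28 ± 0.03 in MYAZ16.1e (standard error, adjusted p = 4.19e-09). For Myc310, LM1 and LM1-LM it was -0.79 ± 0.03, -1.0 ± 0.03 and -1.12 ± 0.03 (adjusted p = 2.62e-19, 5.59e-22 and 3.22e-23). Polr1a, the largest and catalytic subunit, fell only in Myc310, from 346 ± 3.86 to 315 ± 4.94 CPM (SD, n = 3 cultures; log2 fold change -0.15, adjusted p = 7.13e-05). Its log2 fold changes in the other lines were -0.01, -0.04 and -0.02 (adjusted p = 0.211 to 0.731), and in MYAZ16.1e and LM1-LM the cultures overlapped.

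Of the nucleolar scaffold and chaperone proteins, Nolc1, a chaperone that binds snoRNPs, had the largest mean fall of all 35 genes over the 4 lines (-0.93 on the log2 scale). Nolc1 (ENSMUSG00000015176, chromosome 19, 46075863 to 46085530, plus strand) was at 346, 354 and 360 CPM in control and 256, 255 and 257 CPM in deprived MYAZ16.1e cultures. The corresponding values were 447, 436.5 and 431 against 240, 238.5 and 238 CPM in Myc310 and 435, 438 and 445 against 197, 197 and 197 CPM in LM1. In LM1-LM they were 452, 450.5 and 456 against 183, 186 and 188 CPM. The Myc310 lineage thus started above MYAZ16.1e and ended below it, with no overlap between media in any line. Taking the lines in the same order, the changes were -27.8%, -46.0%, -54.1% and -57.9% (log2 fold changes -0.47, -0.89, -1.12 and -1.25, each with a standard error of 0.02, adjusted p = 6.75e-18 to 3.59e-29). Ncl fell in each line, from means of 2642 to 3087 CPM to means of 2257 to 2418 CPM (log2 fold changes -0.23, -0.26, -0.27 and -0.33), and its response differed between LM1-LM and MYAZ16.1e (-0.10, adjusted p = 0.00973). Npm1 fell in MYAZ16.1e, from 3024 ± 41.6 to 2743 ± 49.5 CPM (log2 fold change -0.15, adjusted p = 3.09e-06). In LM1 and LM1-LM it passed the test in the other direction with small changes (0.06, adjusted p = 0.0193, and 0.05, adjusted p = 0.0366) and overlapping cultures, and with upper-quartile scaling these were -0.02 and -0.03. Mybbp1a rose in Myc310, LM1 and LM1-LM (0.10, 0.22 and 0.25), with 0.01 in MYAZ16.1e (adjusted p = 0.639).

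The box C/D proteins, which build the snoRNPs that methylate ribosomal RNA, divided by member. Rrp9, a specific protein of the box C/D snoRNP that takes part in early cleavages, fell in all 4 lines (ENSMUSG00000041506, chromosome 9, 106475963 to 106485424, plus strand). It was at 97.3, 91.7 and 93.1 CPM in control and 71.4, 70.1 and 73.1 CPM in deprived MYAZ16.1e cultures. In Myc310 it was at 116, 115 and 107 against 75.2, 73.8 and 74.8 CPM, and in LM1 at 112, 118 and 122 against 59.8, 62.1 and 66.2 CPM. In LM1-LM it was at 130, 126 and 128 CPM in control and 59.5, 58.3 and 56.8 CPM in deprived cultures. Every deprived culture lay below every control culture of its line (log2 fold changes -0.40, -0.61, -0.87 and -1.10, adjusted p = 3.68e-10 to 2.78e-21). Fbl, the methyltransferase fibrillarin, fell by 0.11 to 0.21 on the log2 scale in the 4 lines. The core proteins Nop56 and Nop58, in contrast, rose in Myc310, LM1 and LM1-LM.

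Nop58 (ENSMUSG00000026020, chromosome 1, 59684971 to 59719044, plus strand) was at 384, 378 and 379 CPM in control MYAZ16.1e and lower, at 338, 335 and 334 CPM, when deprived. In Myc310 it went from 408, 395 and 408 to 455, 452 and 432 CPM. In LM1 it went from 413, 406 and 413 to 513, 516 and 513 CPM, and in LM1-LM from 392, 408 and 415 to 519, 522 and 490 CPM. The media did not overlap in any of the 4 lines, with the deprived cultures below in MYAZ16.1e and above in the others (log2 fold changes -0.19, 0.13, 0.36 and 0.37, adjusted p = 2.24e-07, 2.92e-05, 6.58e-14 and 2.42e-14). Nop56 overlapped in MYAZ16.1e (log2 fold change -0.02, adjusted p = 0.543) and rose by 0.32, 0.22 and 0.29 in Myc310, LM1 and LM1-LM.

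The box H/ACA proteins, which build the snoRNPs that make pseudouridine, also differed among themselves. Nhp2 (ENSMUSG00000001056, chromosome 11, 51619735 to 51623714, plus strand), a core protein, was at 238, 230.5 and 233 CPM in control and 161, 162 and 153 CPM in deprived MYAZ16.1e. It was at 180, 190 and 185 against 115, 108 and 107 CPM in Myc310, and at 193, 188 and 188 against 89.2, 94.4 and 96.0 CPM in LM1. In LM1-LM it was at 204, 192.5 and 199 against 92.9, 92.7 and 92.7 CPM. The media did not overlap, and the changes were -32.3%, -41.1%, -49.5% and -52.0% (adjusted p = 4.13e-16 to 4.24e-23). Dkc1, the pseudouridine synthase dyskerin, fell by 0.38, 0.41, 0.62 and 0.73 on the log2 scale. Gar1, the remaining member, had overlapping cultures in all 4 lines and passed the test only in LM1-LM (0.12, adjusted p = 0.0239).

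The 9 small-subunit factors held 3 of the 4 genes that rose in every line. Nop14 (ENSMUSG00000036693, chromosome 5, 34638536 to 34660148, minus strand), a factor of the small-subunit processome, was at 159, 161 and 155 CPM in control and 227, 221 and 221.5 CPM in deprived MYAZ16.1e cultures. It was at 130, 125 and 129 against 240, 234 and 216 CPM in Myc310 and at 144, 142 and 137 against 260, 270 and 250 CPM in LM1. In LM1-LM it was at 136, 143 and 144 against 266, 264 and 254 CPM. No cultures overlapped, and the rises were 40.6%, 78.1%, 88.9% and 90.4% (log2 fold changes 0.49, 0.83, 0.92 and 0.93, adjusted p = 1.62e-13 to 5.42e-21). Ltv1, a late assembly factor, rose from means of 57.0 to 67.9 CPM to means of 75.9 to 115 CPM (log2 fold changes 0.29, 0.67, 0.85 and 0.80). Rrp12, which takes part in maturation and export of pre-ribosomes, rose by 0.23, 0.56, 0.75 and 0.77. Tsr1 and Nob1, which act late in the cytoplasm, fell slightly in MYAZ16.1e (-0.07 and -0.12). They rose in LM1 (0.25 and 0.15) and LM1-LM (0.28 and 0.20), and in Myc310 Tsr1 rose by 0.09 while Nob1 was at 0.03 (adjusted p = 0.44). Wdr43 of the processome rose in Myc310, LM1 and LM1-LM by 0.17, 0.12 and 0.07, the last of which was -0.01 with upper-quartile scaling.

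The remaining 3 factors of this group fell in every line. Ddx21, an RNA helicase of the nucleolus, fell from 616 ± 9.61 to 498 ± 2.34 CPM in MYAZ16.1e and from 694.5 ± 16.2 to 473 ± 6.97 CPM in Myc310. In LM1 it fell from 796 ± 19.7 to 456 ± 5.05 CPM, and in LM1-LM from 826 ± 10.6 to 444 ± 13.0 CPM (SD, n = 3 cultures). Its log2 fold changes were -0.31, -0.57, -0.77 and -0.86 (adjusted p = 1.62e-12 to 5.87e-24). Heatr1 and Utp20, large proteins of the processome, fell by 0.07 to 0.22 and by 0.07 to 0.16 in the 4 lines, with overlapping cultures in MYAZ16.1e.

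Among the 13 large-subunit factors, 11 fell in all 4 lines, Noc3l rose in all 4 and Ftsj3 had calls in both directions. Ppan (ENSMUSG00000004100, chromosome 9, 20888175 to 20892178, plus strand), a nucleolar factor of large-subunit assembly, had the largest mean fall of this group over the 4 lines, -0.91 on the log2 scale. It was at 126, 126 and 124 CPM in control and 93.9, 97.8 and 96.2 CPM in deprived MYAZ16.1e, and at 145, 141 and 148 against 74.7, 77 and 79.6 CPM in Myc310. In LM1 it was at 147, 152.5 and 154 against 67.4, 64.4 and 70.2 CPM and in LM1-LM at 153, 148 and 156 against 64.1, 66.9 and 64.3 CPM. The changes were -23.8%, -47.1%, -54.3% and -56.1%, with no overlap (adjusted p = 1.19e-11 to 8.61e-24). Grwd1, a chaperone of a ribosomal protein of the large subunit, fell by 0.48, 0.81, 0.88 and 0.93. The PeBoW complex, which is needed for maturation of the large subunit, comprises Pes1, Bop1 and Wdr12. Wdr12 fell by 0.31, 0.52, 0.66 and 0.67, Bop1 by 0.15, 0.30, 0.30 and 0.30, and Pes1 by 0.22, 0.37, 0.24 and 0.23, so that the subunits of this complex fell to different extents. Nop16 and the GTPase Gnl3 (nucleostemin) fell by 0.39 to 0.49 and by 0.30 to 0.45 in the 4 lines, with a larger fall of Gnl3 in LM1-LM than in MYAZ16.1e (-0.15, adjusted p = 0.00163). Falls of Noc2l, Rrs1, Nle1 and the methyltransferase Nop2 were between 0.13 and 0.33. Noc3l, a nucleolar partner of Noc2l, rose by 0.22, 0.35, 0.37 and 0.37, while Noc2l fell.

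**Figure D3:**
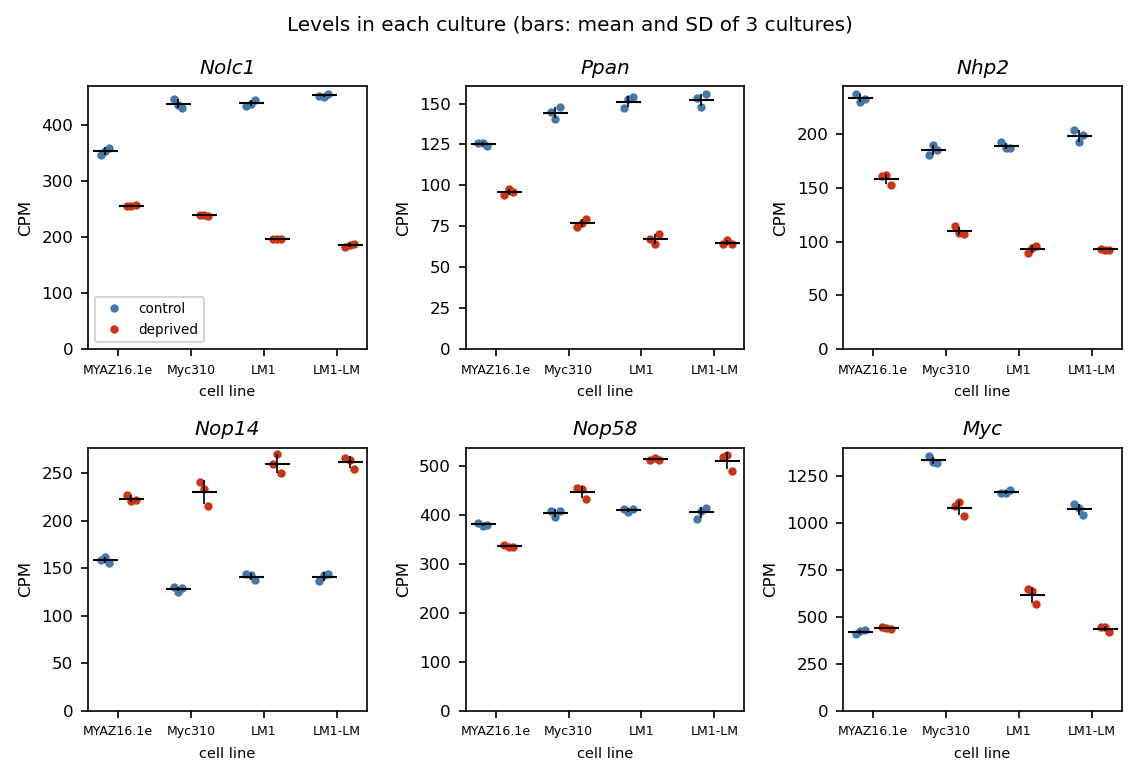
CPM of Nolc1, Ppan, Nhp2, Nop14, Nop58 and Myc (panels) in each culture of the 4 deprived lines in control (blue) and deprived (red) medium, with the mean and SD of 3 cultures in black. Nolc1, Ppan and Nhp2 are lower and Nop14 is higher in all deprived cultures, Nop58 is lower in MYAZ16.1e and higher in the other lines, and Myc ends at 420 to 447 CPM in LM1-LM.

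Myc itself responded differently in the 4 lines. Reads of the transgene and of the endogenous gene cannot be told apart in these counts. In MYAZ16.1e Myc was at 409, 426 and 429 CPM in control and 444, 441 and 436 CPM in deprived cultures, which did not overlap, but the change of 0.06 ± 0.03 on the log2 scale missed the threshold (adjusted p = 0.177). It passed when only the 6 libraries of that line were fitted (0.06, adjusted p = 0.0412) or without replicate 3 (0.07, adjusted p = 0.0341). In Myc310 Myc fell from 1356, 1325 and 1323 to 1092, 1110 and 1037 CPM (-0.32, adjusted p = 9.18e-10). In LM1 it fell from 1159, 1158 and 1177 to 649.5, 636 and 568 CPM (-0.88, adjusted p = 3.77e-20). In LM1-LM it fell from 1102, 1078 and 1042 to 446, 447 and 420 CPM (-1.26, adjusted p = 5.79e-24), close to the levels of MYAZ16.1e. Mycn and Mycl had at most 4 and 12 counts in any library. In MYAZ16.1e, 26 of the 35 genes fell and Myc was not called lower. MYC protein was not measured in these data, and the part of Myc in the changes of the 35 genes was not tested.

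Whether lines responded unequally was tested directly, with interaction terms of the deprivation model. Against MYAZ16.1e, the response of Myc310 was lower for 14 and higher for 11 of the 35 genes, where 20.4% and 19.8% of all genes differed. For LM1 these counts were 14 and 12, against 25.3% and 26.9%, and for LM1-LM 15 and 12, against 26.4% and 28.4%. In the last contrast all 15 lower differences were larger falls, 5 of the higher ones were larger rises and 7 were genes whose log2 fold change was negative in MYAZ16.1e and positive in LM1-LM. The largest differences between LM1-LM and MYAZ16.1e were those of Polr1b (-0.84), Ppan (-0.80) and Nolc1 (-0.78) on the lower side and Nop58 (0.56), Rrp12 (0.53) and Ltv1 (0.51) on the higher side. The other 8 genes (Utp20, Nop2, Nop16, Polr1a, Pes1, Nle1, Fbl and Wdr43) had differences between -0.04 and 0.05 in that contrast, with adjusted p-values of 0.213 to 0.901. LM1 differed from Myc310 for 9 genes on the lower and 8 on the higher side, against 9.96% and 14.5% of all genes. LM1-LM differed from LM1 for Nolc1 (-0.12, adjusted p = 0.0411) and Rrp9 (-0.23, adjusted p = 0.0411) on the lower side and for none of the 35 genes on the higher side, against 0.44% and 0.328% of all genes. By edgeR 7 of the 35 genes had an unadjusted p-value under 0.05 in this last contrast (1 higher and 6 lower), and DESeq2 also called 0 higher and 2 lower. Leaving out replicate 1, 2 or 3 of every group left 0 lower calls among the 35 genes in this contrast, and 2, 3 and 26 among all genes, where the full data gave 59. For Myc310 against MYAZ16.1e the lower count was 9 without replicate 1 and 8 without replicate 2, and for LM1 against Myc310 the higher count was 3 without either of them. Of all genes, 15.9% and 14.6% were lower in the first contrast and 11.1% and 8.48% higher in the second, without replicate 1 and 2. These contrasts share control and deprived cultures and are not independent of each other. The size of the change grew in the order MYAZ16.1e, Myc310, LM1, LM1-LM for 17 of the 35 genes and for 28.5% of all genes (3825 of 13400). The number of higher and lower calls moved with upper-quartile scaling, which gave 19 lower and 10 higher genes for LM1 against MYAZ16.1e, and 11 lower and 3 higher for LM1 against Myc310, where 30.8% and 21.4% and then 13.3% and 9.94% of all genes were called. For all genes, the share of calls that were higher went from 51.5% to 41.0% and from 59.3% to 42.7% in the same contrasts, and from 51.7% to 41.6% for LM1-LM against MYAZ16.1e.

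The promoters of the 35 genes were searched for the E-box, because the genes are set beside Myc. RefSeq windows (GRCm38.p6) from 250 bases before to 50 bases after the annotated start were matched for 30 of the 35 genes. The motif CACGTG, which reads the same on both strands, was present in 9 of these 30 windows (30%), in 16 of 96 windows of other ribosome biogenesis genes (16.7%) and in 2187 of the 27025 genes with a window (8.09%). In 8 of the 9 it began between 2 and 40 bases after the start, and in Nop2 before it. Of the members that fell in all 4 lines, 5 of 18 with a window held it (27.8%), and of those that rose in all 4 lines, 1 of 3 (33.3%). Stretches of 30 bases around the motif are shown for the 4 genes with the largest mean fall among those that hold it, with the E-box in capitals, 5′ to 3′ on the strand of the gene.
Grwd1, chr7:45830740-45830769, minus strand: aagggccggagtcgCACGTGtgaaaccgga
Pes1, chr11:3963965-3963994, plus strand: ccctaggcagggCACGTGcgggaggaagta
Nle1, chr11:82908355-82908384, minus strand: tcggttctcctcCACGTGgggacgcaggat
Nop2, chr6:125131811-125131840, plus strand: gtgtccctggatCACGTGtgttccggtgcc
These genes are factors of the large subunit whose mean log2 fold changes over the 4 lines were -0.77, -0.26, -0.20 and -0.18, and they are shown as the 4 with the most negative means among the 9 genes with the motif. Of the 5 others, Utp20 had a mean of -0.12, and Wdr43, Tsr1, Mybbp1a and Ltv1 had positive means of 0.09, 0.14, 0.15 and 0.65. Binding was not measured in these data, and a motif is a match of letters.

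Other genes of ribosome biogenesis, a list of 115 without the 35, moved in a similar mixture. Of these, 65, 66, 67 and 63 fell and 17, 27, 34 and 31 rose in the 4 deprived lines, in the same order, with median log2 fold changes of -0.12, -0.18, -0.20 and -0.21. Nop10, the remaining box H/ACA core protein, fell by 0.74, 1.12, 1.27 and 1.12, and Urb2 fell by 0.63, 1.02, 1.21 and 1.23. Esf1 (0.62, 1.18, 1.31 and 1.24), Ngdn (0.37, 1.01, 1.18 and 1.20) and the kinase Riok1 (0.59, 0.75, 0.92 and 0.94) rose most. Exosc6, a subunit of the RNA exosome, stood apart. It had 0 counts in all 12 deprived libraries and 361 to 1027 counts in the 33 control libraries, and was the only gene at 0 in every deprived library with 20 or more counts in every control library of the same lines. Against a floor of 3 counts per library it was at least 213-fold lower in deprived LM1 and at least 263.5-fold lower in deprived MYAZ16.1e. Its exons overlap those of Aars on the same strand, and Aars rose by 1.36, 2.01, 2.42 and 2.41, so that reads of this pair may have been assigned to either gene and the level of Exosc6 is uncertain. The medians of the list were the same with Exosc6 set at its bound. Of 79 cytosolic ribosomal protein genes, 44 fell and 3 rose in MYAZ16.1e, whereas 22, 23 and 25 fell and 25, 33 and 34 rose in Myc310, LM1 and LM1-LM. Their medians (-0.08, 0.00, 0.04 and 0.02) stayed closer to 0 than those of the 35 genes. Ribosomal protein genes have many near-identical pseudogenes, which makes their counts less certain.

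In control medium few of the 35 genes were called different between the subtypes of lines, whereas Myc was. Counts were summed per line, so that each line is 1 replicate. Myc was higher than in MYAZ by 0.93 on the log2 scale in LM (adjusted p = 0.0153) and 0.89 in LM-LM (adjusted p = 0.0165). Myc310 is 1 line and has no spread of its own, so that only log2 differences are given for it from these sums. That of Myc was 1.35. The LM and LM-LM lines all descend from Myc310, so that each contrast sets 1 lineage against 3 MYAZ lines. The call of Myc in LM was lost without LM3 (0.91, adjusted p = 0.0505) and that in LM-LM without LM2-LM (0.72, adjusted p = 0.0629). Without MYAZ6.6g the difference in Myc310 was 1.42. Of the 35 genes, 1 was higher and 1 lower in Myc310, where 4.72% and 4.2% of all 16017 genes were called. In LM 3 were higher and 1 lower, against 11.3% and 12.4%, and in LM-LM 5 were higher and 1 lower, against 12.8% and 13.6%. The shares higher are close to those of all genes, and the shares lower are below them in LM and LM-LM. Median log2 differences were 0.13, 0.08 and 0.11 in Myc310, LM and LM-LM, against -0.02, 0.01 and 0.00 for all genes. Between LM-LM and LM, edgeR called 0 of the 35 genes and 0% of all genes in either direction. There 0 of the 35 genes had an unadjusted p-value under 0.05, DESeq2 called 0 as well, and the median difference was 0.05.

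Nop56 was lower in each subtype of the Myc310 lineage. Its means were 630, 648 and 675 CPM in MYAZ16.1e, MYAZ12.3i and MYAZ6.6g and 423 CPM in Myc310. LM1, LM2 and LM3 had 446, 384 and 407 CPM, and the LM-LM lines, in the same numbering, 425, 412 and 386 CPM. No line of the lineage reached the lowest MYAZ line. Log2 differences from MYAZ were -0.61 in Myc310, -0.64 in LM (adjusted p = 0.000693) and -0.67 in LM-LM (adjusted p = 0.000521). With Myc310 and MYAZ fitted alone the Nop56 difference in Myc310 was -0.58. Nop16, a large-subunit factor, was the opposite, at 69.4, 62.3 and 84.8 CPM in the MYAZ lines and 102 to 114 CPM in the 7 others. Its differences were 0.61 in Myc310, 0.57 in LM (adjusted p = 0.00712) and 0.61 in LM-LM (adjusted p = 0.0051). In the same fit of Myc310 and MYAZ alone the Nop16 difference was 0.63. Rrp9 was at 94.6 ± 0.523 CPM in MYAZ, 112.5 ± 5.35 CPM in LM and 124 ± 13.7 CPM in LM-LM (SD, n = 3 lines). It was higher in LM (0.27, adjusted p = 0.0392) and in LM-LM (0.40, adjusted p = 0.00813). Nolc1 was at 339 ± 13.5, 412 ± 29.7 and 436 ± 51.2 CPM in the same subtypes (0.30, adjusted p = 0.0425, and 0.37, adjusted p = 0.0188). Dkc1 (0.28, adjusted p = 0.0411) and Nle1 (0.61, adjusted p = 0.035) were higher in LM-LM alone among the subtypes called, and the LM-LM and LM lines were not called different for either. With LM-LM and MYAZ fitted alone, Nolc1 (0.35, adjusted p = 0.0549), Nle1 (0.59, adjusted p = 0.073) and Dkc1 (0.26, adjusted p = 0.0955) no longer passed, and 2 of the 35 genes were higher, against 9.63% of all genes. With the 30 libraries as replicates, 9, 11 and 12 of the 35 genes were higher and 1, 5 and 3 lower in Myc310, LM and LM-LM, against 23.8%, 30.3% and 30.5% of all 13795 genes higher and 27.1%, 30.5% and 32.3% lower, but that fit takes cultures of a line as independent. Leaving out 1 line at a time gave 1 to 8 and 2 to 11 higher genes in LM and LM-LM. The highest of each was without MYAZ16.1e, where 13.2% and 14.4% of all 15938 genes were higher. Nop56 kept its call in LM and LM-LM without any 1 line, whereas Nolc1, Rrp9, Dkc1 and Nle1 each lost a call in at least 1 subtype without 1 line. Nop16 kept its call in LM and LM-LM without any 1 line. Its difference in Myc310 was 0.49 to 0.63 when 1 line other than MYAZ6.6g was left out. With RLE scaling, upper-quartile scaling or no filter on low counts, 1 of the 35 genes was higher in LM, against 10.5%, 9.46% and 6.13% of all genes. Summed epithelial markers ranged from 339 to 1175 CPM in the MYAZ lines and from 1016 to 2464 CPM in the Myc310 lineage in control medium. The leukocyte sum was at 4.49 to 6.36 CPM in the MYAZ lines and 9.57 to 19.9 CPM in the lineage, without overlap. Fibroblast, endothelial and alveolar sums overlapped between them. The part of the markers in these differences was not tested. Of the 115 other biogenesis genes, 17 and 26 were higher and 6 and 6 lower in LM and LM-LM. Las1l, which takes part in removing an internal spacer of the precursor RNA, was higher in LM and LM-LM by 0.84 and 0.93, Polr1d, a subunit shared by RNA polymerases I and III, by 0.57 and 0.69, and Imp3 by 0.52 and 0.61. The lowest were Eif6 (-0.68 and -0.60), the helicase Ddx27 (-0.58 and -0.52) and the acetyltransferase Nat10 (-0.44 and -0.40). Of the 79 ribosomal protein genes, 5 and 6 were higher and 2 and 2 lower in LM and LM-LM.

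**Figure D4:**
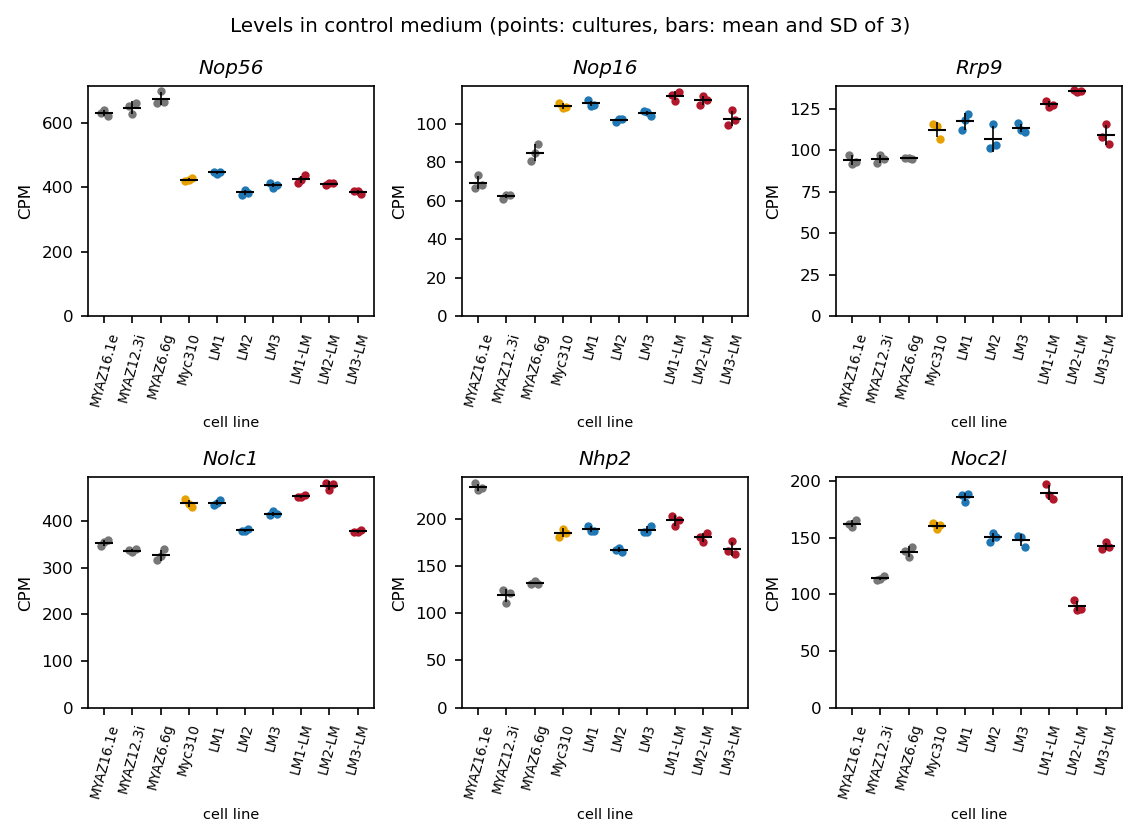
CPM of Nop56, Nop16, Rrp9, Nolc1, Nhp2 and Noc2l (panels) in control medium in 3 MYAZ lines (grey), Myc310 (orange), 3 LM lines (blue) and 3 LM-LM lines (red), with each culture as a point and the mean and SD of 3 cultures in black. Nop56 is lower and Nop16 is higher in all lines of the Myc310 lineage, Nhp2 is highest in MYAZ16.1e, and Noc2l is lowest in LM2-LM.

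The lines within a subtype were not alike. MYAZ16.1e, the MYAZ line used for deprivation, had 234 ± 3.61 CPM of Nhp2, against 119 ± 6.76 in MYAZ12.3i and 132 ± 1.47 in MYAZ6.6g (SD, n = 3 cultures). It also had the highest control mean of all 11 lines for Grwd1 (193 CPM), Tsr1 (250 CPM), Mybbp1a (1177 CPM), Ftsj3 (315 CPM), Nop14 (158 CPM), Polr1b (195 CPM) and Wdr43 (304 CPM). The summed level of the 35 genes was 13958 ± 53.2 CPM in MYAZ16.1e, 12171 ± 114 CPM in MYAZ12.3i and 11789 ± 181 CPM in MYAZ6.6g, with Myc at 421, 591 and 578.5 CPM. The MYAZ line with the highest sum was therefore the line with the lowest Myc. In the Myc310 lineage the sums were 13581 ± 182 CPM in Myc310, 14253 ± 167, 12262 ± 110 and 13112 ± 156 CPM in LM1, LM2 and LM3, and 14470 ± 140, 14355 ± 16.2 and 12690 ± 302 CPM in LM1-LM, LM2-LM and LM3-LM. LM2 and LM3-LM, the lowest of these, also had the lowest Myc of the lineage, 820 and 693 CPM. Noc2l, which forms complexes of the early large subunit, was at 94.5, 86.3 and 87.3 CPM in LM2-LM, below every culture of every other line, and at 142.5 to 189.7 CPM as means in the 6 other lines of the lineage. Its log2 difference between LM-LM and MYAZ was 0.03 (adjusted p = 0.938), and -0.23 without LM1-LM, -0.11 without MYAZ12.3i and 0.25 without LM2-LM.

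Over the 15 means of line and medium, the mean log2 level of the 35 genes and that of Myc had a Pearson r of 0.54 and a Spearman rho of 0.45. These points share lineage and control cultures, and the values are a description. Without the 2 points farthest from the median Myc level (the control means of Myc310 and LM2-LM) r was 0.41. Leaving out each line in turn gave r between 0.46 (without LM1-LM) and 0.78 (without MYAZ16.1e). Over the 11 control means r was 0.57, and without Myc310 and MYAZ16.1e, the farthest of these from the median Myc level, it was 0.90 (rho 0.80). Over the 7 control means of the Myc310 lineage, a choice made after the values were seen, it was 0.80 (rho 0.61). Without LM2 and LM3-LM the lineage r was 0.19, so that it rests on those lines. Gene by gene, r with Myc over the 15 means was positive for 23 and negative for 12 of the 35 genes. It was highest for Nop16 (0.79), Fbl (0.74) and Rrs1 (0.73) and lowest for Nop56 (-0.69). Within the lineage Nop56 had an r of 0.82, against -0.77 over the 11 control means. Ltv1 and Nop14, which rose under deprivation, had r of -0.25 and -0.24 over the 15 means and 0.29 and 0.27 over the 11 control means. After deprivation the summed level was 12588, 12454, 12884 and 12826 CPM in MYAZ16.1e and in Myc310, LM1 and LM1-LM, a narrow range, while Myc was at 440, 1080, 618 and 438 CPM.

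**Figure D5:**
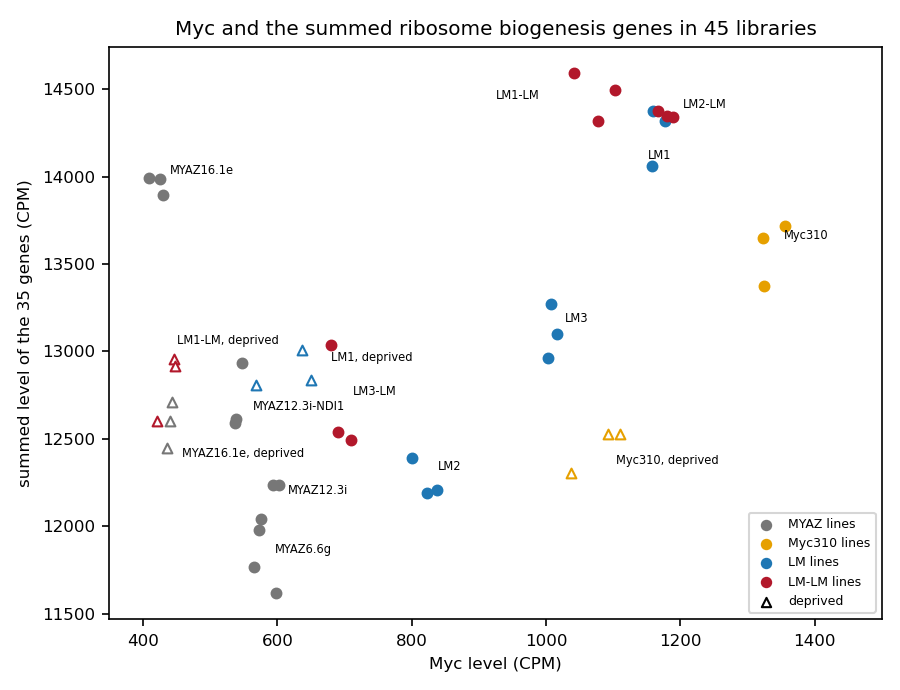
Myc level (horizontal axis, CPM) and summed level of the 35 genes (vertical axis, CPM) in 45 libraries, each a point, in MYAZ (grey), Myc310 (orange), LM (blue) and LM-LM (red) lines, filled for control and open triangles for deprived medium. The vertical axis does not start at 0. Control MYAZ16.1e lies at the upper left, with the lowest Myc of the control lines and a high sum, and the deprived cultures lie between 12305 and 13007 CPM over a wide range of Myc.

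The NDI1 derivative was compared with its parent MYAZ12.3i in control medium. Of the 35 genes, 8 were higher and 2 lower, where 8.14% and 9.27% of all 12841 genes tested were called. Nhp2 rose most, from 124, 111 and 121 CPM in the parent to 151, 148.5 and 140 CPM (0.29 ± 0.04 on the log2 scale, adjusted p = 0.000318), with no overlap. Ftsj3 (0.16), Mybbp1a (0.15), Pes1 (0.14), Heatr1 (0.13), Npm1 (0.13), Fbl (0.12) and Nop2 (0.11) were also higher, and Gnl3 (-0.15) and Wdr12 (-0.12) were lower. The count of higher genes was 5 without replicate 1 and 4 without replicate 2, and that of lower genes 1 without replicate 1 or 3. Of all genes, 2.95% and 3.38% were higher without replicate 1 and 2, and 3.99% and 5.73% were lower without replicate 1 and 3. Myc was lower in the derivative, at 541 ± 5.35 against 591 ± 13.5 CPM (-0.13, adjusted p = 0.00449, or -0.11 and 0.0833 without replicate 1). Of the 115 other biogenesis genes 30 were higher and 3 lower, and of the 79 ribosomal protein genes 1 was higher and 10 lower. Marker sums also differed. From parent to derivative the epithelial sum went from 339 to 352 CPM to 367 to 380 CPM, and the fibroblast sum from 94.1 to 98.4 CPM to 103.7 to 107.1 CPM. The endothelial sum was lower (9.77 to 10.7 against 8.08 to 8.67 CPM), and the leukocyte and alveolar sums overlapped. The part of the markers in the calls was not tested. The derivative is 1 line, so that NDI1 and the culture history of the line cannot be told apart.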

How the data were processed

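The 45 libraries were polyadenylated RNA of cell line cultures, made with a directional kit and sequenced as paired reads. The authors aligned and quantified them with STAR and RSEM against GRCm38 and deposited whole-number counts per gene, and the submitters' processing notes also list R 4.2.2 and DESeq2 1.38.3. From those counts, CPM and log2 fold changes were computed with edgeR 4.0.16 and limma 3.58.1 in R 4.3.3. edgeR's quasi-likelihood test with TMM scaling, the filterByExpr filter and Benjamini-Hochberg adjustment over all genes (threshold 0.05) was used throughout, and DESeq2 1.42.0 was an alternative. A prior count of 2 was used for log levels. Deprivation was fitted on 24 libraries in 8 groups (13400 genes). Subtypes were compared on counts summed per line over 10 lines (16017 genes), since cultures of a line are technical replicates. The NDI1 comparison used 6 libraries (12841 genes). The 45 libraries form 15 groups of line and medium; the written design said 14, a miscount, and 15 were used. The scripts were tested on simulated data.

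The 35 genes and the lists were chosen with earlier results of these data known. Genes outside the 35 were named by largest mean fall or rise, among those called, in the deprivation and subtype comparisons, 3 each way. Of the genes listed, 7725 have no symbol and 1438 have no count in any library. The alternatives tried were other scalings, no filter, DESeq2, a replicate block, fewer samples and each replicate or line left out. Total counts set the precision of each value. Same-numbered cultures did not deviate together (correlations of -0.18 to 0.15).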

Additional observations from a re-analysis of the deposited data

Results flagged for a closer look

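The responses to deprivation differed between lines by a test of the difference itself (edgeR's interaction contrast). Of the 35 genes, 25 responded differently in Myc310 and MYAZ16.1e, 26 in LM1 and MYAZ16.1e, 27 in LM1-LM and MYAZ16.1e, 17 in LM1 and Myc310 and 2 in LM1-LM and LM1. Of all 13400 genes, 40.3%, 52.2%, 54.8%, 24.5% and 0.769% did so in the same contrasts. The Myc response differed in the same contrasts, by -0.38, -0.94, -1.31, -0.56 and -0.38 on the log2 scale, the last of which was -0.36 without replicate 2 and no longer passed (adjusted p = 0.0614). Between LM1-LM and MYAZ16.1e the largest differences among the 35 genes were -0.84 for Polr1b, -0.80 for Ppan and -0.78 for Nolc1, and 0.56 for Nop58, 0.53 for Rrp12 and 0.51 for Ltv1. The contrasts share cultures, and MYAZ16.1e was the only deprived line from outside the Myc310 lineage, so that the line and its origin cannot be told apart.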

How the results depend on the processing

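Of 1440 fits of the 35 genes and Myc under deprivation with an alternative setting, 1383 kept direction and call, 37 lost the call, 6 gained it and 14 changed sign. With upper-quartile scaling the log2 fold changes that changed sign were -0.0036 for Nob1 and -0.0172 for Ftsj3 in Myc310, -0.0163 for both Gar1 and Npm1 in LM1 and -0.0131 for Wdr43 and -0.0284 for Npm1 in LM1-LM. Noc2l in LM-LM against MYAZ became -0.0132, the count of genes higher for LM1 against Myc310 became 3 and the Pearson r with Myc became 0.42. The r was 0.57 over 11 control means and 0.80 over 7 lineage means. With upper-quartile or RLE scaling or no filter, 1 gene was higher in LM; without the filter 1 gene was lower for LM1-LM against LM1, and DESeq2 gave 1 lower gene for NDI1. Myc in MYAZ16.1e was 0.0642 in its own 6 libraries and passed the test.

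The replicate numbers did not pair the cultures; with a replicate block 1 gene was lower for LM1-LM against LM1, and the other deprivation counts stayed within 1.5 times. With 30 libraries the higher counts in Myc310, LM and LM-LM were 9, 11 and 12 and the lower counts in LM and LM-LM 5 and 3. Adding the replicate block gave 8, 11, 12, 5 and 2. With this block 3191, 4097 and 4136 of all 13795 genes were higher in the same order, and 4147 and 4392 were lower in LM and LM-LM. With voom and the line as a random block these were 5, 8, 9, 2 and 2, and Noc2l was -0.0526. With only the compared subtypes, LM-LM had 2 higher. The cause of these changes was not tested.

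With 1 replicate or line left out, counts ranged from 1 to 8 (higher in LM) and from 2 to 11 (higher in LM-LM). For NDI1 they were 4 to 8 higher and 1 to 2 lower. Those of the responses were 3 to 7 (higher, LM1 against Myc310), 8 to 12 (lower, Myc310 against MYAZ16.1e) and 0 (lower, LM1-LM against LM1). The r ranged from 0.46 to 0.78. Log2 differences of Myc ranged from 0.79 to 1.05 (LM), 0.72 to 1.08 (LM-LM), 1.21 to 1.42 (Myc310), -0.16 to -0.11 (NDI1), 0.0275 to 0.0726 (deprived MYAZ16.1e), -0.18 to 0.15 (LM-LM against LM) and -0.43 to -0.34 (response of LM1-LM against LM1). Those of Noc2l in LM-LM ranged from -0.23 to 0.25. Under deprivation, in Myc310, Ftsj3 ranged from -0.0013 to 0.036, Gar1 from -0.0004 to 0.16 and Npm1 from -0.034 to 0.0051. In MYAZ16.1e, Gar1 ranged from -0.0824 to 0.016, Mybbp1a from -0.0096 to 0.026, Polr1a from -0.0731 to 0.0202 and Wdr43 from -0.0019 to 0.0288, and in LM1-LM Polr1a ranged from -0.0452 to 0.0036.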
